A study of Homo sapiens with 12 samples.

Results

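The interaction of dihydrotestosterone (DHT) and doxycycline (dox) was examined gene by gene, as the DHT change on arrays labelled with dox minus the DHT change on arrays without it, in log2. A gene that responds to DHT equally in both settings has an interaction of 0. A negative value means a smaller rise (or a larger fall) in the presence of dox, and a positive value means the opposite. Genes were chosen by signal alone: 12122 of the 20046 genes with a named probe had a probe above the background limit of 147.5 intensity units in at least 1 group, and all of them were tested. The 12 arrays formed 4 groups of 3, labelled ethanol vehicle, dox, DHT, and DHT with dox, all on C4-2B cells, a bone-homing subline of the LNCaP prostate cancer line. Per the labels these cells carry a RUNX2 gene that dox switches on, so every group shares that construct. They were kept for 48 h in medium with charcoal-stripped serum, which is low in steroids, and then treated. Treatment lasted 48 h. The stated dose of DHT was 10 mM and that of dox 250 µg/ml, and whether these units are as used could not be settled. The source name adds the code 181 to the line. Nothing in the sources used here says whether the line is a single clone.

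DHT is the most potent natural androgen. It binds the androgen receptor, a nuclear receptor that moves onto DNA and raises or lowers the transcription of its target genes together with pioneer factors such as FOXA1. RUNX2 is a Runt-domain transcription factor that directs bone formation and is expressed in prostate and breast tumours that spread to bone. Runt-domain factors can bind the androgen receptor and change which of its targets respond, so a factorial design with each agent alone and both together is meant to ask, for each gene, whether the androgen response differs when RUNX2 has been induced.

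The arrays bear their labels only in part. RUNX2, the gene that dox is labelled to induce, read 210.3, 207 and 226 with vehicle, 293, 272 and 245 with dox, 313, 274 and 271 with DHT, and 331, 259 and 322 with both. It was 1.26-fold higher with dox than with vehicle (limma adjusted p = 0.016), about as much as with DHT alone (1.33-fold), and in the presence of DHT the dox change was 1.06-fold (limma adjusted p = 0.578). These values show no strong induction of RUNX2, and whether the probe reads the introduced copy was not tested. Prostate-specific antigen (KLK3) exceeded background on 1 of 12 arrays, KLK2 and FOLH1 on 0, and the prostate homeobox gene HOXB13 on 1, whereas the estrogen receptor gene ESR1 read 2157 to 4711 and the trefoil factor gene TFF1 6293 to 22780 on all 12. Over all lists of markers, 5 of 16 prostate luminal and 10 of 13 breast luminal markers were above background on every array. So were 2 of 4 basal epithelial, 2 of 12 fibroblast, 2 of 10 immune and 2 of 10 neuroendocrine markers. Of 8 endothelial markers 0 were above background on every array, and 7 were above it on 0 arrays. The dox arrays differed from the others by a rise of estrogen-induced genes: 26 of 26 measured were called higher with dox than with vehicle, against 16.1% of all genes tested, with a median log2 change of 1.196 without DHT and 1.41 with it. The estrogen receptor cofactor GREB1 rose 15.5-fold, and the log2 change was 3.25 for MGP, 2.66 for HEY2 and 2.21 for MYB. The list was chosen with these data known, so its direction is a description. Whether the dox label holds was not tested, and every change given for dox below is one between arrays so labelled. The summed intensity of the breast luminal markers was also higher with dox, from 66390 to 67787 on vehicle arrays and 62484 to 65472 on DHT arrays to 84924 to 88882 on dox arrays and 79838 to 83791 on arrays with both. The members did not move together. TFF1 and XBP1, both also listed as estrogen-induced, rose by 1.19 and 0.92, while ESR1, GATA3 and FOXA1 changed by -0.62, -0.53 and -0.35 and AGR2 by 0.047. The summed intensity of the prostate luminal markers was 4622 to 4925 with vehicle, 5361 to 5857 with DHT, 3658 to 3871 with dox and 3891 to 4086 with both. The part of cell identity and of the estrogen-induced rise in the results below was not tested, and groups are named by their labels only. In bulk RNA, fewer cells of a type and less RNA per cell cannot be told apart.

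An interaction was called for 35 genes, 0.289% of those tested, by limma with Benjamini-Hochberg adjustment at 0.05. It was negative for 19 of them (0.157%) and positive for 16 (0.132%), and 27 reached 1.5-fold, a log2 size of 0.58. At an unadjusted p under 0.05 the count was 1220, or 10.1%. By comparison, DHT changed 7.6% of genes without dox and 4.27% with it, and dox changed 32.8% without DHT and 33.5% with it. These shares are not at equal power. An interaction is a difference between changes and has a larger standard error than either (0.124 against 0.088 for CLDN1). Split over all genes, dox held 78.3% of the variation between the 4 group means, DHT 15.8% and their interaction 5.87%. The interaction calls therefore form a small set, and its size rested on single arrays. Leaving out 1 array could raise it above 35 or lower it. It was 9 without dox replicate 3, 14 without DHT replicate 2, 16 without DHT replicate 1 or without dox replicate 1, 17 without vehicle replicate 2, 18 without DHT with dox replicate 3, and 21 without DHT with dox replicate 2. Calls held without any 1 array for 9 genes, namely CLDN1, UPK3A, EPAS1, CXCR4, MT2A, PDLIM1, DYNC2I2, DUSP19 and CEP19. The sign of the gene value held for all 35 in each alternative fit, though other probes of 5 genes, YRDC, ZMAT3, EXO5, CEP19 and GRB14, had the opposite sign to the brightest.

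**Figure D1:**
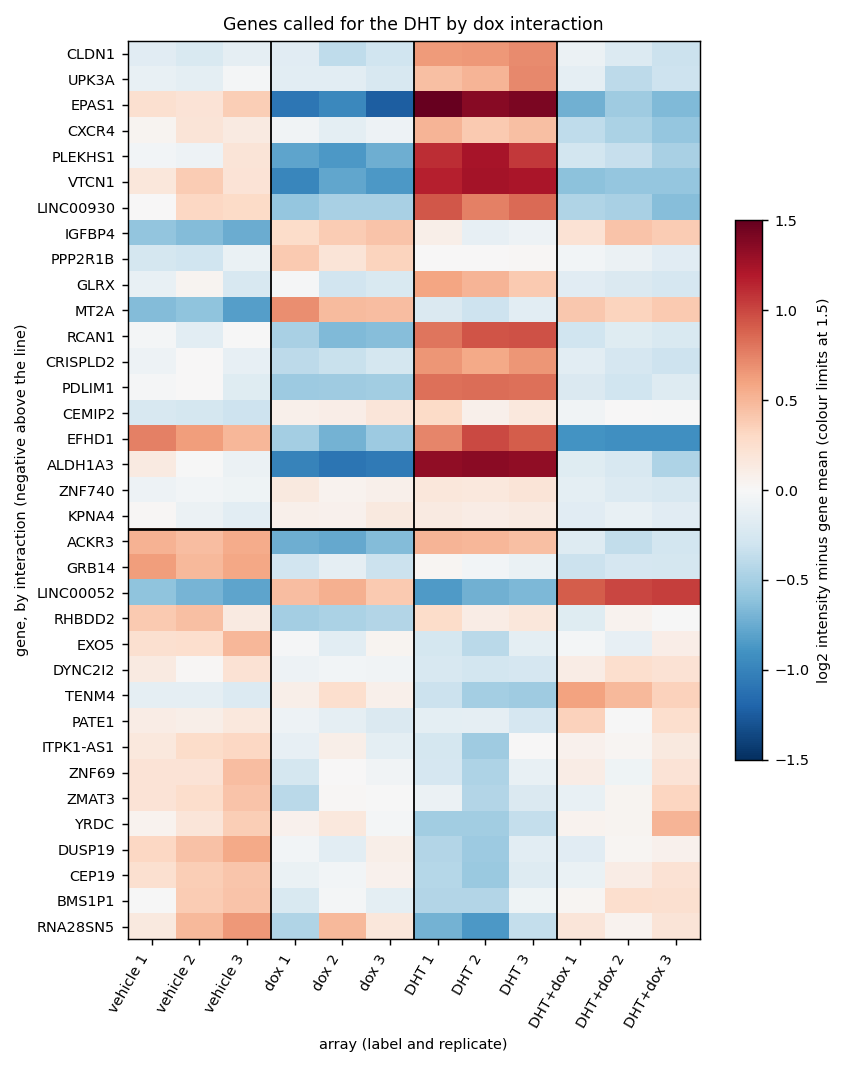
Log2 intensity of the 35 genes called for the interaction on each of the 12 arrays, minus the mean of the gene over all arrays, with red above and blue below that mean. The 19 genes with a negative interaction stand above the horizontal line, most of them reddest on the 3 arrays labelled DHT, and the 16 with a positive interaction stand below it, most of them bluest on those arrays.

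Most genes with a negative interaction shared a shape. They were highest on arrays labelled DHT (16 of 19), and in 13 of the 19 all 3 DHT arrays lay above the 9 others, against 5.68% of all genes tested. Because the interaction itself is read from these arrays, that count describes the shape and is no separate test. Of the 19, the DHT change was called only without dox in 9, in both settings but smaller with dox in 5, only with dox in 4, and in opposite directions in 1 (CXCR4). The class of 4 depends on the threshold. Without dox, KPNA4, ZNF740, EFHD1 and PPP2R1B changed upward, by 0.207, 0.234, 0.249 and 0.231. These changes missed the threshold, at limma adjusted p of 0.0508, 0.0738, 0.0738 and 0.109. With dox the same genes changed by -0.245, -0.294, -0.323 and -0.41, in that order.

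EPAS1, which encodes the hypoxia-inducible factor HIF-2alpha, read 2049, 2011 and 2248 with vehicle and 818, 892 and 739 with dox. It read 5207, 4480.1 and 4643 with DHT, and 1055, 1206 and 1102 with both. No groups overlapped, and the DHT group was the highest by far. DHT raised EPAS1 2.27-fold without dox and 1.38-fold with dox, giving an interaction of -0.72 ± 0.12 (log2 ± SE, 3 arrays a group, adjusted p = 0.0124 by limma). Read the other way, dox was associated with a log2 change of -1.37 without DHT and -2.09 with it, a 4.26-fold lower level in the presence of DHT. EPAS1 kept its call under each of the 22 alternative fits that could be set beside it.

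CLDN1, which encodes the tight junction protein claudin-1, showed the strongest negative interaction. Its probe read 162, 155 and 166 with vehicle, 163, 139.8 and 149 with dox, 284, 286 and 299 with DHT, and 172, 159 and 146 with both. Only the DHT group stood apart, since the other groups overlapped near the background limit. The DHT change was 0.85 without dox and 0.078 with it, and the interaction -0.77 ± 0.12 (limma adjusted p = 0.0124). UPK3A, a uroplakin of the urothelial membrane, had the same form, with means of 150.4 ± 6.03 (SD, n = 3) with vehicle, 237.8 ± 24.2 with DHT, 141.3 ± 4.57 with dox and 132.9 ± 12.2 with both. It exceeded background on 0 arrays of either dox group, so its interaction of -0.75 ± 0.13 (limma adjusted p = 0.0124) contains a DHT change with dox that was not measurable. On arrays labelled DHT it was at least 1.61-fold higher than on those with both agents.

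A further set rose with DHT in both settings, or rose without dox, from a level that dox lowered. ALDH1A3, an enzyme that makes retinoic acid and a known androgen target, went from 797.4 ± 61.6 to 1991.1 ± 17.8 with DHT, and from 379.7 ± 11.9 to 644.9 ± 65.6 in the presence of dox, a 2.50-fold against a 1.69-fold rise (interaction -0.56 ± 0.12, limma adjusted p = 0.0372). Its second probe, at 480 in vehicle and 1248 in DHT means, gave -0.73. PLEKHS1, a pleckstrin homology domain gene, rose 2.16-fold without and 1.34-fold with dox. RCAN1, an inhibitor of calcineurin, rose 1.95-fold and 1.28-fold, and PDLIM1, an adaptor of the actin cytoskeleton, 1.86-fold and 1.23-fold. For PDLIM1 the replicates were tight, at 1659, 1668 and 1653 with DHT against 803, 762 and 819.8 with both agents, and its interaction was -0.60 ± 0.10 (limma adjusted p = 0.0124). VTCN1, an immune checkpoint ligand of the B7 family, rose 1.94-fold without dox and by a log2 change of 0.28 with dox (limma adjusted p = 0.0654), and it was above background on 1 of 3 dox arrays. In 6 of the 19, namely ALDH1A3, EPAS1, PDLIM1, PLEKHS1, RCAN1 and VTCN1, the 3 dox arrays lay below the 9 others, against 3.2% of all genes tested. The dox arrays also enter the interaction, so that count describes the shape and is no separate test.

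LINC00930, a long non-coding RNA, CRISPLD2, a secreted protein, and GLRX, the glutaredoxin that reverses protein glutathionylation, also rose with DHT only where dox was absent. GLRX read 466, 517 and 425 with vehicle and 759, 719 and 659 with DHT. On dox arrays it read 497, 413 and 428, and with both agents 449, 432 and 422. The dox arrays, with or without DHT, overlapped the vehicle arrays, and GLRX had an interaction of -0.64 ± 0.13 (limma adjusted p = 0.0368). CRISPLD2 rose by 0.69 without dox and changed by 0.090 with it. LINC00930 rose by 0.64 without dox and exceeded background on 0 arrays of the dox groups, where it was at least 2.27-fold lower with both agents than with DHT. Leaving out 1 array ended the call in 10 of 12 fits for LINC00930, 9 for ALDH1A3, 7 for RCAN1 and GLRX, 6 for PLEKHS1, 5 for CRISPLD2 and 2 for VTCN1. In these fits the limma adjusted p rose to at most 0.126, 0.121, 0.0794, 0.109, 0.0843, 0.0805 and 0.0583, in that order. With the background median subtracted, the calls of CLDN1, UPK3A and all 7 of these genes were lost.

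**Figure D2:**
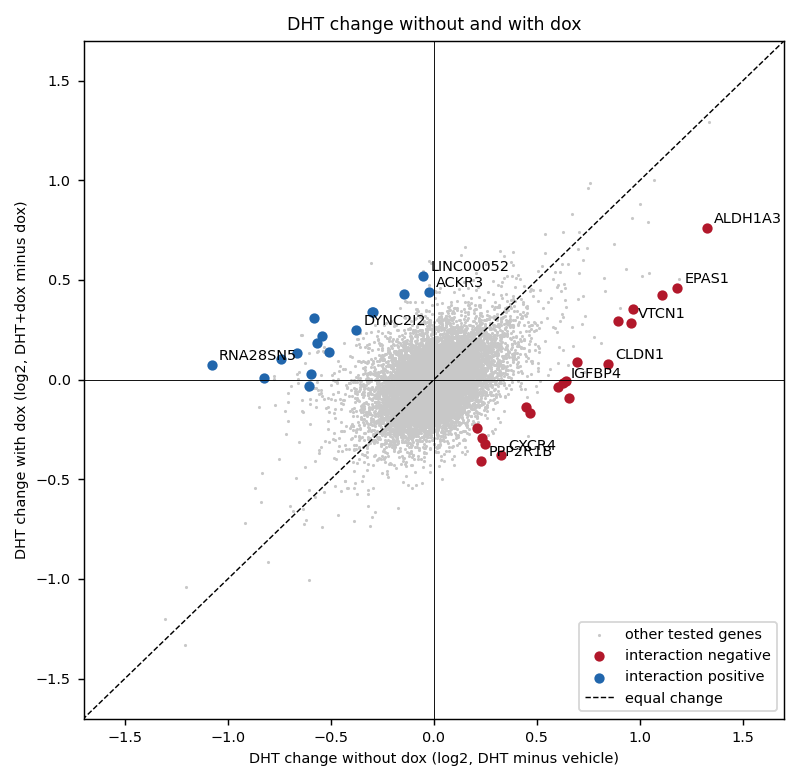
Each point is a gene: the horizontal axis is the log2 DHT change without dox and the vertical axis the log2 DHT change with dox, with the dashed line marking equal changes. Genes called for a negative interaction (red) lie below the line, from ALDH1A3 at 1.32 and 0.76 to CXCR4 at 0.33 and -0.38, and those with a positive interaction (blue) lie above it.

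IGFBP4, MT2A and CEMIP2 had another shape, in which each agent alone raised the gene and both together gave no more than dox. IGFBP4, which binds and sequesters insulin-like growth factors, read 1052, 1016 and 947 with vehicle and 1690, 1467 and 1504 with DHT. With dox it read 1921, 2067 and 2147, and with both 1851, 2141 and 2073. The dox groups overlapped fully, while DHT lay between them and vehicle. DHT raised it by 0.63 without dox and changed it by -0.018 with dox (interaction -0.64 ± 0.11, limma adjusted p = 0.0124, and 0.0583 without dox replicate 3). MT2A, a metallothionein that binds zinc and copper and is induced by metals and glucocorticoids, read 873, 901 and 777 with vehicle, 1186, 1109 and 1231 with DHT, 2221, 1910 and 1896 with dox, and 1824, 1727 and 1796 with both. Vehicle lay below the 9 other arrays, and dox above them. Dox raised MT2A 2.36-fold without DHT and 1.52-fold with it, and the interaction was -0.64 ± 0.11 (limma adjusted p = 0.0124). CEMIP2, a cell surface hyaluronidase, averaged 600.8 ± 14.3 with vehicle, 789.1 ± 32.0 with dox, 820.3 ± 61.1 with DHT and 716.8 ± 17.1 with both. Its interaction of -0.59 ± 0.11 (limma adjusted p = 0.016) lost its call without DHT replicate 1 or dox replicate 3, with limma adjusted p up to 0.0783.

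In CXCR4, PPP2R1B, EFHD1, KPNA4 and ZNF740 the DHT change was downward in the presence of dox. CXCR4, the receptor of the chemokine CXCL12 that guides tumour cells to bone, read 289, 320.1 and 306 with vehicle and 398, 368 and 382 with DHT. On dox arrays it read 269, 252 and 264, and with both agents 215, 202 and 187. No groups overlapped: DHT was the highest and the combination the lowest. DHT raised CXCR4 by 0.33 without dox and changed it by -0.38 with dox, both passing limma (adjusted p of 0.0183 and 0.0111), so its response turned over (interaction -0.71 ± 0.12, limma adjusted p = 0.0124). A dimmer CXCR4 probe gave 0.16 and -0.16. Its interaction of -0.31 was not called when every probe was tested on its own (limma adjusted p = 0.418). PPP2R1B, a scaffold subunit of protein phosphatase 2A, was highest with dox alone (298.8 ± 21.3) and fell by 0.41 when DHT was added, with vehicle at 206.9 ± 15.4 and an interaction of -0.64 ± 0.12.

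KPNA4, an importin that carries proteins into the nucleus, and EFHD1, a calcium-binding mitochondrial protein, were brightly measured. KPNA4 averaged 2612.5 ± 157 with vehicle, 2947.9 ± 91.3 with dox, 3011.2 ± 30.8 with DHT and 2488.0 ± 56.4 with both, so that the arrays of each agent alone stood above vehicle, while those with both agents overlapped it. The interaction held 94.7% of the variation between its group means (-0.45 ± 0.09, limma adjusted p = 0.0336). EFHD1 was mainly lower with dox, which held 96.4% of its variation, and DHT with dox brought it to 633, 626 and 627 from 829, 726 and 808. ZNF740, a zinc finger gene, was close to background throughout (136.7 to 177.0 in group means) and not above it on any array with both agents. Its interaction of -0.53 ± 0.11 passed at a limma adjusted p of 0.0404 with all arrays and in none of the 12 fits that left out 1 array. The calls of KPNA4, EFHD1 and PPP2R1B were lost in 10, 9 and 7 of those 12 fits, with limma adjusted p up to 0.11, 0.134 and 0.0805.

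**Figure D3:**
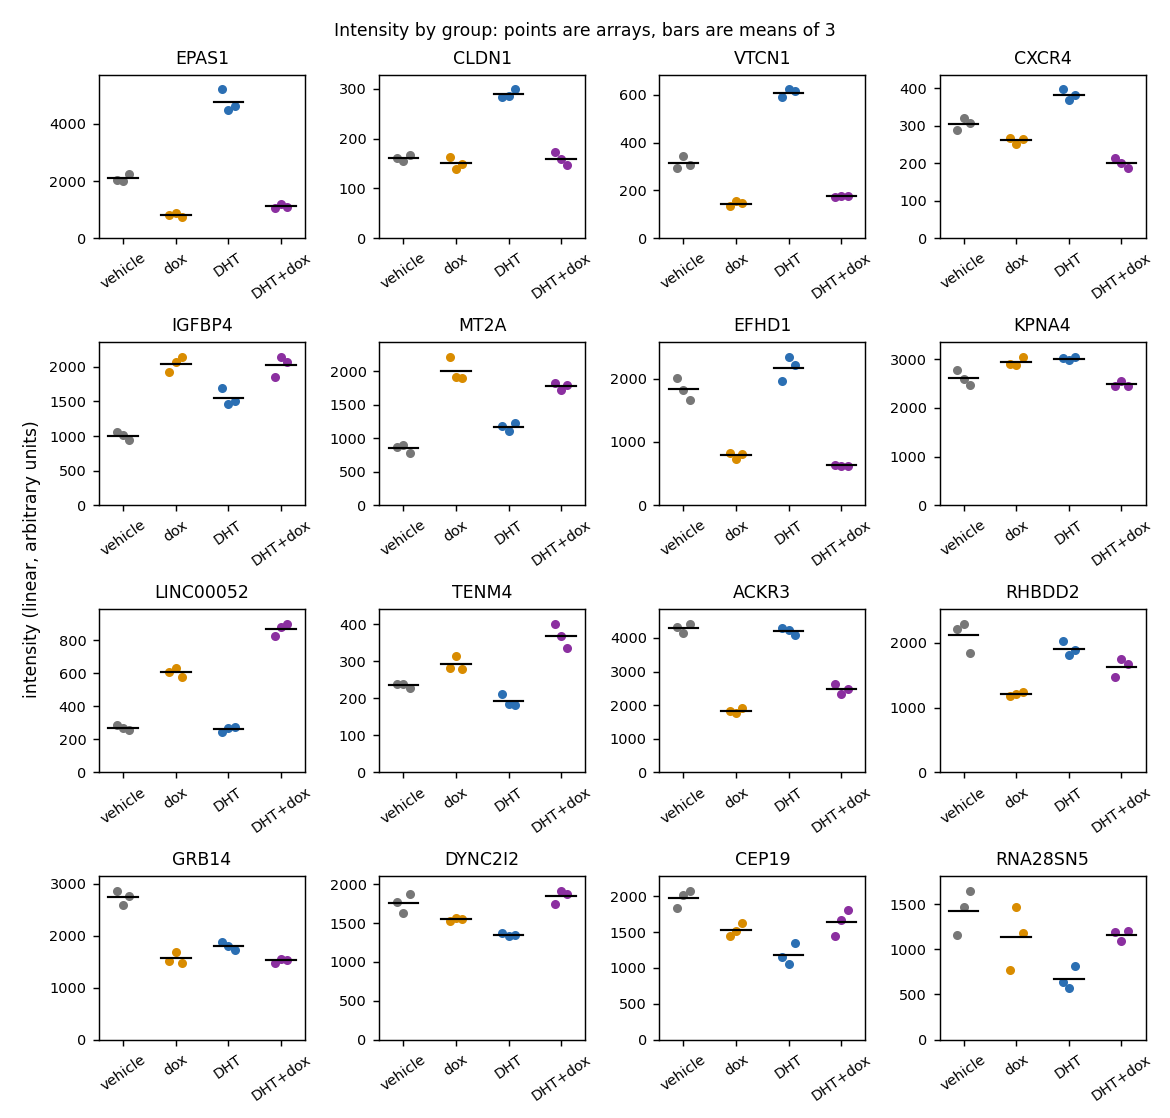
Linear intensity of 16 genes called for the interaction, with a point for each array and a bar for the mean of 3 in the groups vehicle, dox, DHT and DHT with dox. EPAS1, CLDN1 and VTCN1 peak with DHT alone, IGFBP4 and MT2A with dox, LINC00052 and TENM4 with both, and CEP19 and RNA28SN5 are lowest with DHT alone.

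Among the 16 genes with a positive interaction, the DHT change passed the test only on dox arrays in 5. That class rests on the threshold for TENM4 and PATE1, which changed by -0.29 and -0.30 without dox (limma adjusted p of 0.0529 and 0.0506) and by 0.34 each with dox, about as much in the opposite direction. LINC00052, a long non-coding RNA, read 290.2, 271 and 255 with vehicle and 244, 267 and 276 with DHT. It read 608, 634 and 579 with dox, and 827, 881 and 901 with both. DHT and vehicle overlapped, and all 3 arrays with both agents lay above the 9 others. DHT changed LINC00052 by -0.052 without dox and raised it 1.43-fold with dox (interaction 0.57 ± 0.12, limma adjusted p = 0.0368), and its second probe gave 0.29. ACKR3, a scavenging receptor of CXCL12, was lowered by dox from 4317, 4133 and 4421 to 1815, 1763 and 1917. With DHT it read 4297, 4248 and 4099, and with both agents 2631, 2335 and 2481. The DHT and vehicle arrays overlapped, as the change of -0.025 shows, and the combination lay above dox. DHT raised ACKR3 1.35-fold on dox arrays (interaction 0.46 ± 0.09, limma adjusted p = 0.0336).

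CXCR4 and ACKR3, which both bind CXCL12, thus had interactions of opposite sign. CXCL12 itself had an interaction of -0.10 that did not pass (limma adjusted p = 0.833), with dox changes of 2.06 and 1.95. RHBDD2, a rhomboid family membrane protein, followed ACKR3 in form: it fell from 2118.8 ± 240.0 with vehicle to 1211.8 ± 27.3 with dox, and rose by 0.43 when DHT was added to dox. TENM4, a teneurin of the cell surface, averaged 236.5 ± 6.38 with vehicle, 193.4 ± 15.9 with DHT, 292.0 ± 19.4 with dox and 369.3 ± 32.9 with both (interaction 0.63 ± 0.13, limma adjusted p = 0.0368). PATE1, a testis- and prostate-expressed gene, was above background on 2 of 3 vehicle and 2 of 3 DHT with dox arrays and on 0 of the other 6. Calls were lost without 1 array in 10 of 12 fits for ACKR3, RHBDD2 and PATE1, 9 for TENM4 and 8 for LINC00052, at limma adjusted p up to 0.0913, 0.126, 0.115, 0.121 and 0.118.

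The other 11 genes with a positive interaction were lower with DHT alone than with vehicle, and none of them was called lower with DHT on dox arrays. GRB14, an adaptor that restrains insulin receptor signalling, read 2864, 2598 and 2771 with vehicle. It read 1885, 1807 and 1723 with DHT, 1518, 1690.0 and 1480 with dox, and 1484, 1551 and 1540.0 with both. Vehicle stood above all other arrays and the dox groups overlapped, and GRB14 fell by 0.60 with DHT alone and changed by -0.033 with DHT on dox arrays (interaction 0.57 ± 0.10, limma adjusted p = 0.0124, and 0.0583 without dox replicate 3). DYNC2I2, a dynein-2 intermediate chain of intraflagellar transport, read 1764, 1635 and 1875 with vehicle and 1371, 1330 and 1352 with DHT. With dox it read 1524, 1570 and 1551, and with both agents 1740.3, 1914 and 1873. DHT arrays lay below all others, and the combination overlapped vehicle. It fell by 0.38 with DHT alone and rose by 0.25 with DHT on dox arrays (interaction 0.63 ± 0.10, limma adjusted p = 0.0124), and kept its call in each alternative fit.

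CEP19, a centrosomal and ciliary protein, DUSP19, a dual-specificity phosphatase, YRDC, which makes the threonylcarbamoyl modification of transfer RNA, EXO5, a single-strand DNA exonuclease, ZMAT3, a p53-induced RNA-binding protein, the zinc finger gene ZNF69, the pseudogene BMS1P1, the antisense RNA gene ITPK1-AS1 and the 28S ribosomal RNA gene RNA28SN5 shared a narrower form. In each of these 9 the log2 mean was lowest with DHT and highest with vehicle. For YRDC the linear means had vehicle and both agents in the other order, at 1300.2 and 1309.8. CEP19 read 1839, 2014 and 2077 with vehicle and 1152, 1057 and 1354 with DHT. With dox it read 1446, 1512 and 1624, and with both agents 1452, 1675 and 1806. Vehicle lay above the 9 other arrays and DHT below them (interaction 0.84 ± 0.13, limma adjusted p = 0.0124). Over all genes tested, vehicle lay above the rest in 3.75% and DHT below the rest in 2.66%. Both groups enter the interaction by which CEP19 was called, so its form is a description and no separate test. DUSP19 fell by 0.82 with DHT alone and changed by 0.008 on dox arrays (interaction 0.83 ± 0.14, limma adjusted p = 0.0124). BMS1P1 had an interaction of 0.89 ± 0.15 and YRDC of 0.80 ± 0.15, at limma adjusted p of 0.0124 and 0.021.

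Of the 35 called genes RNA28SN5 had the largest interaction, 1.15 ± 0.24 (limma adjusted p = 0.0372), and the largest standard error. It read 1163, 1475 and 1649 with vehicle, 769.8, 1474 and 1183 with dox, 639.5, 576 and 816 with DHT, and 1191, 1089 and 1201 with both. The dox arrays overlapped both vehicle and the combination. As background, ribosomal RNA carries no poly(A) tail. The labels name a reverse transcription kit without its primers, and the part of priming in these values was not tested.

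Other probes of the same gene often gave another value. Of the 16 genes with a positive interaction, 9 had another probe above background, and the second-brightest pointed the same way in 5 and the opposite way in 4. Of these 12 other probes, limma called 0 when every probe was tested on its own. For YRDC the brightest probe gave 0.80 and the other, nearly as bright at 774 to 1255 in group means, gave -0.006. For ZMAT3 the brightest gave 0.76 while the others gave -0.11 and -0.086, and rose with DHT alone by 0.43 and 0.32 where the brightest fell by 0.54. EXO5 gave 0.62 and -0.083, and CEP19 0.84, 0.24 and -0.097. The 2 probes of RNA28SN5 gave 1.15 and 0.68. Among the 3 genes with a negative interaction and another such probe, ALDH1A3 gave -0.56 and -0.73, CXCR4 -0.71 and -0.31, and RCAN1 -0.61 and -0.14. Of these 3 other probes, limma called 1, that of ALDH1A3, when every probe was tested on its own. With the mean of probes, the call was lost in 9 of 9 genes with a positive and 1 of 3 with a negative interaction that had another probe. Too few negative genes had one to compare the sets, and no difference between them was tested. Probe sequences were not used here, and what each probe binds was not tested. Without 1 array, calls were lost in 10 of 12 fits for EXO5, 9 for RNA28SN5, ZMAT3 and ITPK1-AS1, 6 for YRDC and ZNF69, and 2 for BMS1P1.

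**Figure D4:**
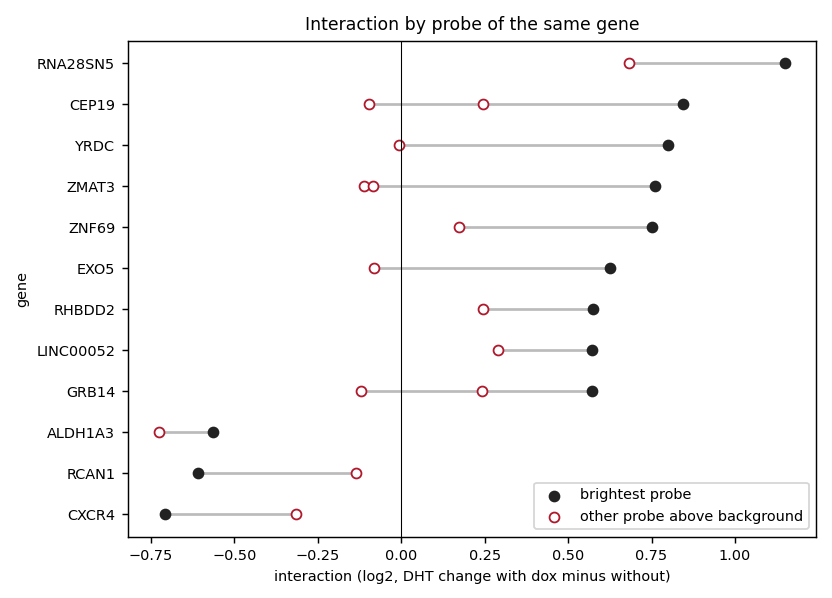
Interaction (log2, horizontal axis) of each probe above background for the 12 called genes with more than 1 such probe, with filled points for the brightest probe and open points for the others. The open points of YRDC, ZMAT3 and EXO5 lie between -0.11 and -0.006, those of CEP19 at -0.097 and 0.24, and those of ALDH1A3 and CXCR4 at -0.73 and -0.31.

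Promoter windows were searched for the letters of a Runt-domain site and of steroid receptor sites. RefSeq windows (GRCh38.p14, 250 bases before to 50 after the start) were at hand for 28 of the 35 genes and 9678 of the genes tested. The core Runt-domain motif TGTGGT, on either strand, was found in 3 of the 28, against 13.2% of the genes tested. The palindromic estrogen response element GGTCANNNTGACC was in 0 of 28 and in 2 of 9678 genes, and the palindromic androgen response element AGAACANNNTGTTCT in 0 and 0. A match is a description of letters, and these windows leave out distal elements. The windows with a Runt-domain match are shown with it in capitals, 5′ to 3′ on the strand of the gene. They lie at chr3:179069293-179069592 (minus strand, 1 of 2 windows of ZMAT3), chr14:93067202-93067501 (plus strand) and chr19:11887532-11887831 (plus strand). The match starts 45, 155 and 125 bases before the start, in that order. All 3 genes had a positive interaction by the probe used, and whether its direction goes with the motif was not tested. Other probes of ZMAT3 gave -0.11 and -0.086, and that of ZNF69 gave 0.17.
ZMAT3 window: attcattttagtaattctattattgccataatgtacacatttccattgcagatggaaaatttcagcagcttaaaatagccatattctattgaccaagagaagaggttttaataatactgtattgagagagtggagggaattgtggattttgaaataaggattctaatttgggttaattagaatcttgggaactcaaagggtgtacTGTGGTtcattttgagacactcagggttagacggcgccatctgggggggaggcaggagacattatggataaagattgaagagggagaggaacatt
ITPK1-AS1 window: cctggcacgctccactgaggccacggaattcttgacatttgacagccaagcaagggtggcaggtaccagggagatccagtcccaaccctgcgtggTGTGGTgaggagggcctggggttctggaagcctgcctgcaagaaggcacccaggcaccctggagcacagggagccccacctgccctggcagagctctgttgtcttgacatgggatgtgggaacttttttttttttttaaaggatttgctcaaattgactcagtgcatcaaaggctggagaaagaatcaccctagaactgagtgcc
ZNF69 window: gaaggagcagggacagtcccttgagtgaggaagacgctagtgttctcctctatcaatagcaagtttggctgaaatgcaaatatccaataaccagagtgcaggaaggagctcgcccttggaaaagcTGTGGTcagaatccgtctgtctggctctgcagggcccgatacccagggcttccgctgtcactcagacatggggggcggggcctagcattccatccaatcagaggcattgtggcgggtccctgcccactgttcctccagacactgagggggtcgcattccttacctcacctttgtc

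Androgen-responsive genes as a whole were taken from the mean DHT effect over both settings, a contrast that is orthogonal to the interaction in a balanced design. Both contrasts share the estimate of spread of each gene, so calls in them are not independent. By that mean effect DHT raised 834 genes (6.88%) and lowered 772 (6.37%). Among the raised genes the median DHT change was 0.29 without dox and 0.22 with dox, and the interaction was negative in 575, or 68.9%, against 56.7% of all genes tested. Of these 575, 12 passed the test for attenuation, where 0.157% of all genes had a negative call. Among all genes with a negative interaction, 19 of 6875 were called. The 12 were ALDH1A3, CLDN1, CRISPLD2, EPAS1, GLRX, IGFBP4, LINC00930, PDLIM1, PLEKHS1, RCAN1, UPK3A and VTCN1. Augmentation passed in 2 of 259, ACKR3 and LINC00052, where 0.132% of all genes had a positive call. Among all genes with a positive interaction, 16 of 5247 were called. Among the lowered genes the medians were -0.23 and -0.24, and the interaction was positive in 368 (47.7%, against 43.3% of all genes). It passed as attenuation in 6 of 368 (CEP19, DUSP19, EXO5, GRB14, RNA28SN5 and YRDC), against 16 of all 5247 positive genes. As augmentation it passed in 0 of 404, against 19 of all 6875 negative genes. An unadjusted limma p under 0.05 was found for attenuation in 132 of the 575 raised and 75 of the 368 lowered genes. For augmentation it was found in 32 of the 259 raised and 55 of the 404 lowered genes. Over all genes tested the share was 10.1%, in either direction.

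Some androgen-responsive genes had interactions as large that did not pass. IFIT1, an interferon-induced gene, had -0.69 ± 0.45 (limma adjusted p = 0.643) among the raised genes. In the direction of augmentation, LOXL1, a cross-linker of elastin, changed by -0.026 without dox and 0.59 with dox (interaction 0.62 ± 0.14, limma adjusted p = 0.0747). ST3GAL4, a sialyltransferase, changed by 0.15 and 0.67 and RPRM, a p53-induced arrest gene, by 0.13 and 0.62, while PPIB, the cyclophilin B gene, changed by -0.013 and 0.58. FKBP14, a chaperone of collagen folding, changed by -0.82 without dox and -0.008 with dox (interaction 0.81 ± 0.18, limma adjusted p = 0.0533). Lower only on dox arrays were CAV1, the caveolin of cell surface pits, at 0.040 and -0.50 (interaction -0.54 ± 0.12, limma adjusted p = 0.0579), and AKR1C3, an enzyme of androgen synthesis, at -0.089 and -0.53 (limma adjusted p = 0.0747). PKP1, a desmosome plaque gene, changed by -0.17 and -0.64, SUSD2 by 0.023 and -0.43, and UGT2B17, which conjugates androgens for excretion, by -0.52 with dox, while it was not above background without dox. These are values of genes that missed the threshold, and a miss does not show equal responses.

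Gene lists of pathways held at most 1 called member each. Over all genes tested 0.289% were called, 10.1% had an unadjusted p under 0.05, 56.7% were negative and the median was -0.025. In lists this short a count of 1 or 0 calls says little. Of 19 androgen-induced genes measured, 1 had a called interaction (ALDH1A3), the median was -0.105 and 16 were negative. Not all 19 rose with DHT on these arrays. Their mean DHT change over both settings ran from -0.42 (SGK1) to 1.04 (ALDH1A3), and many lay near or below 0. A negative interaction in this list was therefore not always a smaller rise. Of 26 estrogen-induced genes 1 was called (IGFBP4), with a median of -0.099, and 11 of 26 had an unadjusted p under 0.05, against 10.1% of all genes. These went both ways: TFF1, a secreted trefoil peptide, had 0.44 and the mineralization inhibitor MGP -0.44 (limma adjusted p of 0.0931 and 0.0747), while the hormone gene STC2 had 0.38 and the receptor kinase gene RET -0.36. TFF1 read 9547, 8639 and 9334 with vehicle, 7492, 6293 and 7824 with DHT, 19691, 22332 and 20769 with dox, and 21233, 22780.4 and 22725 with both. DHT lay below vehicle, while the combination overlapped dox at its lower end. Of 15 RUNX2 skeletal and invasion genes 1 was called (CXCR4) with a list median of -0.10, of 24 hypoxia and glycolysis genes 1 (EPAS1, median -0.094), of 19 epithelial junction genes 1 (CLDN1, median -0.061), of 11 insulin-like growth factor genes 1 (IGFBP4, median 0.004), of 19 retinoid and steroid enzyme genes 1 (ALDH1A3, median -0.048), of 17 p53 targets 1 (ZMAT3, median 0.088), of 7 androgen-repressed genes 1 (ACKR3, median -0.083) and of 19 small nucleolar RNA genes, their hosts and RNA28SN5 1 (RNA28SN5, median -0.002).

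In the remaining lists limma called 0 members, against 0.289% of all genes. Cholesterol and fatty acid synthesis genes had a median of -0.16 with 14 of 17 negative, and 4 of the 17 had an unadjusted p under 0.05. The other medians, each with its members at such a p (10.1% of all genes), were as follows. Secreted luminal proteins had -0.097 (4 of 13), cell cycle genes -0.032 (5 of 33), MAP kinase feedback genes -0.062 (6 of 24), amino acid supply genes -0.084 (3 of 21) and histones 0.080 (2 of 18). Unfolded protein response genes had -0.003 (2 of 19), heat shock genes -0.008 (2 of 15), feedback genes for Wnt, BMP and TGF-beta -0.032 (1 of 18), nuclear receptor genes -0.034 (3 of 17), mesenchymal genes -0.011 (3 of 10), estrogen-repressed genes -0.022 (5 of 17) and housekeeping genes -0.089 (3 of 15). Among the cell type markers, prostate luminal genes had -0.11 (2 of 8), breast luminal genes -0.099 (4 of 11), fibroblast genes 0.006 (0 of 5), immune genes 0.025 (1 of 4), basal genes 0.050 (0 of 2) and neuroendocrine genes -0.033 (0 of 2), and no endothelial marker was measured.

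Interferon response genes had the lowest list median, -0.40 over 29 genes, with 26 negative, 0 called by limma and 12 at an unadjusted p under 0.05. Over all genes 56.7% were negative, 0.289% called and 10.1% at such a p. A single array carried much of this. IFIT1 read 435, 485 and 1776 on the DHT arrays, against 329, 265 and 362 with vehicle, 234, 215 and 219.9 with dox, and 284, 418 and 267 with both. ISG15, a ubiquitin-like modifier, read 3301, 2692 and 5342 on the DHT arrays, and OAS2, a sensor of viral RNA, 186, 177 and 465. DHT replicate 3 was the highest in each. Without DHT replicate 3 the list median went to -0.14. IFITM3, which blocks virus entry, was less tied to that array, at 2968, 2818 and 3045 with DHT and 1996, 1860 and 2079 with both agents (interaction -0.41, limma adjusted p = 0.231).

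The genes to be given whatever their result, RUNX2, SNAI2, TMPRSS2, FKBP5 and GREB1, gave no called interaction. RUNX2 had -0.25 ± 0.14 (limma adjusted p = 0.586), from the values given at the start. SNAI2, an epithelial-to-mesenchymal repressor, averaged 219.8 with vehicle, 305.7 with DHT, 138.0 with dox and 147.2 with both (interaction -0.38 ± 0.12, limma adjusted p = 0.242). The combination was thus below either vehicle or DHT alone. SNAI2 was above background on 0 of 3 arrays with dox alone and on 2 of 3 with both agents. TMPRSS2, an androgen-driven serine protease, rose by 0.83 without and 0.45 with dox (interaction -0.38 ± 0.12, limma adjusted p = 0.256). FKBP5, a chaperone of steroid receptors, had 0.083 ± 0.12 (0.876), and GREB1, an estrogen receptor cofactor, 0.21 ± 0.14 (0.64), which turned to -0.061 with the mean of its probes. For FKBP5 no DHT change was called in either setting. It was -0.17 without dox and -0.091 with dox (limma adjusted p of 0.265 and 0.624). KLK3 was not above background in any group mean and was not tested.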

How the data were processed

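Total RNA was reverse-transcribed and labelled with biotin, per the labels' protocols, and read on arrays with Illumina probe identifiers. The deposited table holds intensities on a linear scale, and the submitters' processing notes name GenomeStudio. Its version and any normalization or background step are not given in sources used here. Sorted columns differed by at most 0.8 intensity units, so the arrays already shared their quantiles and no further normalization was applied. The arrays ran from 84.1 to 27321.9 with a median of 137.6, which includes background signal and so compresses the changes of dim probes. Of 47230 probes, 30113 carried 1 gene symbol in the platform's table, 8 several and 17109 none. Of the named probes 30074 were named by gene identifier in RefSeq (GRCh38.p14), and the symbol of the platform stayed for 39.

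A floor of 20 (0 values lay below) preceded log2. As the limit of background served the 95th percentile, 147.5, of 640 probes with a median of 118.5. These stand for 535 genes of defensins, taste and olfactory receptors and keratin-associated proteins. Each gene was read by its brightest probe above the limit in a group mean. limma 3.58.1 in R 4.3.3 fitted the 4 group means over all 12 arrays (eBayes with a trend), with two-sided p-values adjusted by the Benjamini-Hochberg method over 12122 genes and a threshold of 0.05. A fold was given as "at least" where the dimmer group was not above the limit on any array, with that limit in its place. Plots were drawn with matplotlib 3.10.9, and tables made with numpy 2.4.6 and pandas 2.3.3 under Python 3.11.15. The script was tested on simulated data.

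The samples were grouped by the treatment in their titles. The labels describe biological triplicates, and the number of arrays limits the precision. The contrast, its members and the gene lists were chosen with earlier results of these data known. The rule named the 15 called genes with the largest interaction in each direction, the 4 largest in each shape of the DHT change, called members of lists, the 5 androgen-responsive genes of each direction with the largest attenuation and augmentation, and RUNX2, SNAI2, TMPRSS2, FKBP5, KLK3 and GREB1. KPNA4, EFHD1 and ZNF740, which complete the called genes, and list members without a call (TFF1, MGP, HEY2, MYB, XBP1, ESR1, GATA3, FOXA1, AGR2, STC2, RET, CXCL12, SGK1, ISG15, OAS2 and IFITM3) were named after their values were seen. Alternatives changed the background, scale, probe choice, filter, variance prior, array weights, normalization and replicate block, and left out each array in turn.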

Additional observations from a re-analysis of the deposited data

Results flagged for a closer look

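The DHT change with dox differed from that without dox in 35 genes by the limma test of the difference itself (adjusted p under 0.05, 3 arrays a group), given here as log2 differences. It was lower with dox for CLDN1 (-0.77), UPK3A (-0.75), EPAS1 (-0.72), CXCR4 (-0.71), PLEKHS1 (-0.69), VTCN1 (-0.68), LINC00930 (-0.65), IGFBP4 (-0.64), PPP2R1B (-0.64), GLRX (-0.64), MT2A (-0.64), RCAN1 (-0.61), CRISPLD2 (-0.60), PDLIM1 (-0.60), CEMIP2 (-0.59), EFHD1 (-0.57), ALDH1A3 (-0.56), ZNF740 (-0.53) and KPNA4 (-0.45). It was higher with dox for ACKR3 (0.46), GRB14 (0.57), LINC00052 (0.57), RHBDD2 (0.57), EXO5 (0.62), DYNC2I2 (0.63), TENM4 (0.63), PATE1 (0.64), ITPK1-AS1 (0.65), ZNF69 (0.75), ZMAT3 (0.76), YRDC (0.80), DUSP19 (0.83), CEP19 (0.84), BMS1P1 (0.89) and RNA28SN5 (1.15). Every leave-one-out fit kept the call of 9 of these genes, and 17 were called in fewer than 6 of the 12 such fits.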

How the results depend on the processing

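The count of 35 called genes (16 positive, 19 negative) was 18 (8 and 10) with the background median subtracted, and 69 (48 negative) on linear intensities. With the mean of probes 6 were positive, and 10 without the variance trend. Genes with a DHT change called only without dox numbered 19, against 9 with background subtracted, 41 on linear intensities and 11 with the mean of probes. The values of GREB1, which was not called, turned from 0.21 to -336.7 intensity units on the linear scale and to -0.061 with the mean of probes. Leaving out 1 array gave 9 to 52 calls, 3 to 34 of them positive and 6 to 18 negative, and 7 to 38 genes with a change called only without dox. With the replicate block the count was 50, 32 of them positive, 34 of the 35 genes kept their call and 34 genes had a DHT change called only without dox. The replicate numbers gave no clear pairing of the arrays. Same-numbered arrays correlated between -0.121 and 0.208 in their deviations from the group means, over 0.1 in 1 of 18 pairs. Other pairs ran from -0.189 to 0.162, and 3 of 12 arrays correlated best with their own number. Whether same-numbered arrays shared a culture or batch was not tested. Testing each probe on its own, an alternative chosen after seeing the data, gave 35 calls. The cause of these shifts was not tested. The gene value of the 35 called genes reversed in 0 fits, while single other probes of YRDC, ZMAT3, EXO5, CEP19 and GRB14 had the opposite sign. Signal near background limits UPK3A, LINC00930, ZNF740 and PATE1.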

Other observations

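Probes without a gene symbol were tested apart, a choice made after seeing the data. Of 5580 above background, limma called an interaction for 7 (0.125%), 6 of them positive and 1 negative, with values from -0.65 to 1.14 on the log2 scale.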
